A study of Mus musculus with 2 samples.

Results

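The accessible chromatin of 9 imprinted genes, Mest, Nnat, Peg3, Plagl1, Igf2, H19, Grb10, Peg10 and Sgce, was described in adipocytes made in culture. The genes were chosen by name, out of 55413 annotated genes, and every DNase peak and hotspot that overlapped a gene body or the 50 kb to either side of it was taken. Igf2 and H19 were treated as 1 domain, so that the 9 genes gave 8 windows, and the overlapping windows of Peg10 and Sgce left 7 separate stretches of 1111 kb in all. These held 102 of the 133695 peaks of replicate 1 and 170 of the 216556 peaks of replicate 2.

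The study held 1 group of 2 libraries: DNase-seq of adipocytes obtained from the 3T3-L1 line at day 8 of differentiation, with no undifferentiated or treated cells beside them. 3T3-L1 is an established mouse preadipocyte line that fills with lipid after hormonal induction. The labels give strain C57BL/6J and the same donor record for both libraries, which are numbered as biological replicates, and each library joined more than 1 technical replicate. The spread between them may therefore be partly technical. DNase-seq cuts chromatin with the nuclease DNase I and sequences the ends, so a peak marks DNA that was open to the enzyme, and the lists do not separate the maternal from the paternal chromosome.

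An imprinted gene is transcribed mainly from the chromosome of 1 parent, under a control region that is DNA-methylated on only 1 of the parental chromosomes. Mest, Nnat, Peg3, Plagl1, Igf2, Peg10 and Sgce are expressed from the paternal chromosome, H19 from the maternal one, and Grb10 from the maternal one in most tissues. At H19 the control region lies upstream of the gene, where the insulator protein CTCF binds the unmethylated maternal chromosome. At Peg3 it covers the start and first intron, which carries repeated sites for the zinc-finger protein YY1. Several of the genes act on fetal growth and fat: Igf2 is a growth factor, Grb10 an adaptor that restrains the insulin and IGF receptors, Mest a predicted hydrolase linked to fat cell enlargement, and Nnat and Peg10 have been tied to adipocyte differentiation.

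The sequences on which the results turn are given first, on the plus strand of GRCm38 (mm10). A site is a merged interval of overlapping peaks, and the sites printed here held a peak of both libraries. The 4 sites of the Peg3 first intron are shown because they carry copies of the YY1 motif AANATGGC, which stand in capitals. They lie at chr7:6729476-6729645, chr7:6728636-6728865, chr7:6728336-6728625 and chr7:6727796-6728085, in the order in which the gene, on the minus strand, runs through them.
Peg3 site 1: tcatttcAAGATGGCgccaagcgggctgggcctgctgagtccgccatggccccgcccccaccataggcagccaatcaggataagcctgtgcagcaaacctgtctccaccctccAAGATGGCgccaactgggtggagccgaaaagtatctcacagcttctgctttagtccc
Peg3 site 2: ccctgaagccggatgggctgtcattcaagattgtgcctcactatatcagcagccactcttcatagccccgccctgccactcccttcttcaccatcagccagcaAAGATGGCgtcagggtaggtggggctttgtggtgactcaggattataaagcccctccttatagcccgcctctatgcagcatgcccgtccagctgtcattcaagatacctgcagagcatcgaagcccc
Peg3 site 3: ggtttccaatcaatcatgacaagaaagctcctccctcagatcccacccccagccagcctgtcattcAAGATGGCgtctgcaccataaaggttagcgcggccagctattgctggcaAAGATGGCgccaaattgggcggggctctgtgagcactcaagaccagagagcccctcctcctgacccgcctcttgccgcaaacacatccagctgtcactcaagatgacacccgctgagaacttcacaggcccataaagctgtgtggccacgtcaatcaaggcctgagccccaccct
Peg3 site 4: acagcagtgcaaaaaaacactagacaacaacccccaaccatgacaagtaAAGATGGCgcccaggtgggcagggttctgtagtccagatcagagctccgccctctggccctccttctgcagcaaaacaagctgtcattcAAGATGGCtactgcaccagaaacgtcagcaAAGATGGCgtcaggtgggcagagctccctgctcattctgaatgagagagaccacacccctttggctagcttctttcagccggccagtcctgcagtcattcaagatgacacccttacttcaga

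Upstream of H19, at chr7:142580656-142580825 and chr7:142581736-142581925, the sites are shown because they hold the CTCF core GGNGGCAG. The capitals mark it, here as its reverse complement because the matches lie on the minus strand.
H19 upstream site 1: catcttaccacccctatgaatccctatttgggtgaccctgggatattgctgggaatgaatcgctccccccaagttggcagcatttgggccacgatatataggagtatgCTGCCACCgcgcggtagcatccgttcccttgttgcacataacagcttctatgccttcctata
H19 upstream site 2: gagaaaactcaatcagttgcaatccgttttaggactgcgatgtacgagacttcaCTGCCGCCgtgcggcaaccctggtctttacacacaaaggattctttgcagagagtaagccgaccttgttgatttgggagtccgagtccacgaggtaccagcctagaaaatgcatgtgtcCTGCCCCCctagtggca
A pair of further CTCF core matches on the minus strand of the same stretch lay outside the peaks found in both libraries. They are given with their neighbouring bases on the minus strand, the strand of the match, at chr7:142580298-142580327 and chr7:142582023-142582052.
H19 upstream match without shared peak 1: cgatgccgcgtGGTGGCAGtacaatactac
H19 upstream match without shared peak 2: agttgccgcgtGGTGGCAGcaaaatcgatt

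The start of Peg10 and Sgce (chr6:4747236-4747385) and the upstream start of Igf2 (chr7:142666916-142667065) contrast in base composition. Each CpG is in capitals, and the former holds 14 of them and the latter 0.
Peg10 and Sgce start site: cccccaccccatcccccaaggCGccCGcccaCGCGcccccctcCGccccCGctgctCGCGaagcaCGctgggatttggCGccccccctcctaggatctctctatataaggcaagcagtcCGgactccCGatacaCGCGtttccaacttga
Igf2 upstream start site: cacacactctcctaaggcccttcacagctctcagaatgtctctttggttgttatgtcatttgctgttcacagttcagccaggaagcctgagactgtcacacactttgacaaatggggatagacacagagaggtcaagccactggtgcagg
The Nnat site (chr2:157561276-157561425) and the strongest intronic site of Grb10 (chr11:11973456-11973605) are shown as the peak nearest to the Nnat start and the highest-ranked site within the body of a member. They held 4 and 3 CpGs.
Nnat site: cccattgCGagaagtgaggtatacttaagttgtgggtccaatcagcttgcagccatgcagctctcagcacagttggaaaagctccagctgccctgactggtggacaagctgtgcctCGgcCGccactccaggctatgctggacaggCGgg
Grb10 intron site: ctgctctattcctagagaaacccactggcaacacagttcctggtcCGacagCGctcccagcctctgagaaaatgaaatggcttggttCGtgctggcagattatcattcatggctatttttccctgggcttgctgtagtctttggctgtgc

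Markers and list sizes set the frame for these regions. All 8 adipocyte markers, such as Adipoq and Pparg, had a peak of both libraries within 1000 bp of an annotated transcript start, as did 4 of 5 preadipocyte and fibroblast markers. None of the 10 hepatocyte, blood, muscle, pluripotency and endothelial markers did, although Cd68 and Pecam1 had one in replicate 2. Replicate 2 had the longer lists, and the deposited peak value, a whole number from 1 to 150, had a median of 45 in replicate 1 and 69 in replicate 2. It is the authors' own score and serves here only to rank peaks within a list. A percentile is the rank of a value in its own list, so that values of the libraries are not compared directly.

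Of the 9 genes, 5 had a peak of both libraries within 1000 bp of a start: Nnat, Peg3, Igf2, Peg10 and Sgce. Grb10 had one in replicate 2 alone, and Mest, Plagl1 and H19 had none in either library. Among all protein-coding genes 12552 of 21938 (57.2%) had such a promoter peak. Hotspots, the broader regions of raised cutting, gave the same 5 genes in both libraries. The share of members was near that background.

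The genes have several starts each, which were joined into clusters where they lay less than 1000 bp apart. A peak of both libraries was found at 6 of 32 clusters, against 33.1% of the clusters of protein-coding genes. Of the 32, 14 clusters lay at a CpG island of the stricter kind. Such an island joins windows of 500 bp with at least 55% GC and an observed to expected CpG ratio of 0.65. The joined island can fall below that ratio, as at the Peg3 start (0.629). Only 4 of these 14 had a peak in both libraries, those of Nnat, Peg3, Peg10 and Sgce, where 73.5% of such clusters of protein-coding genes did. The rule asks for a peak within 1000 bp of a start, not in the island. The Nnat cluster counts through a peak outside its island, which held none in either library. Clusters of Igf2 and Grb10 share islands, and Peg10 and Sgce share 1, so the 14 are not independent. Counted by island, wherever it lay, 5 of the 16 in the windows held a peak of both libraries (31.2%), against 9951 of 21523 in the genome (46.2%). Of these 5, only the island of Peg3 and that shared by Peg10 and Sgce lay at a member start. The others lay at starts of the neighbours Cep41, Blcap and Mrpl23.

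**Figure D1:**
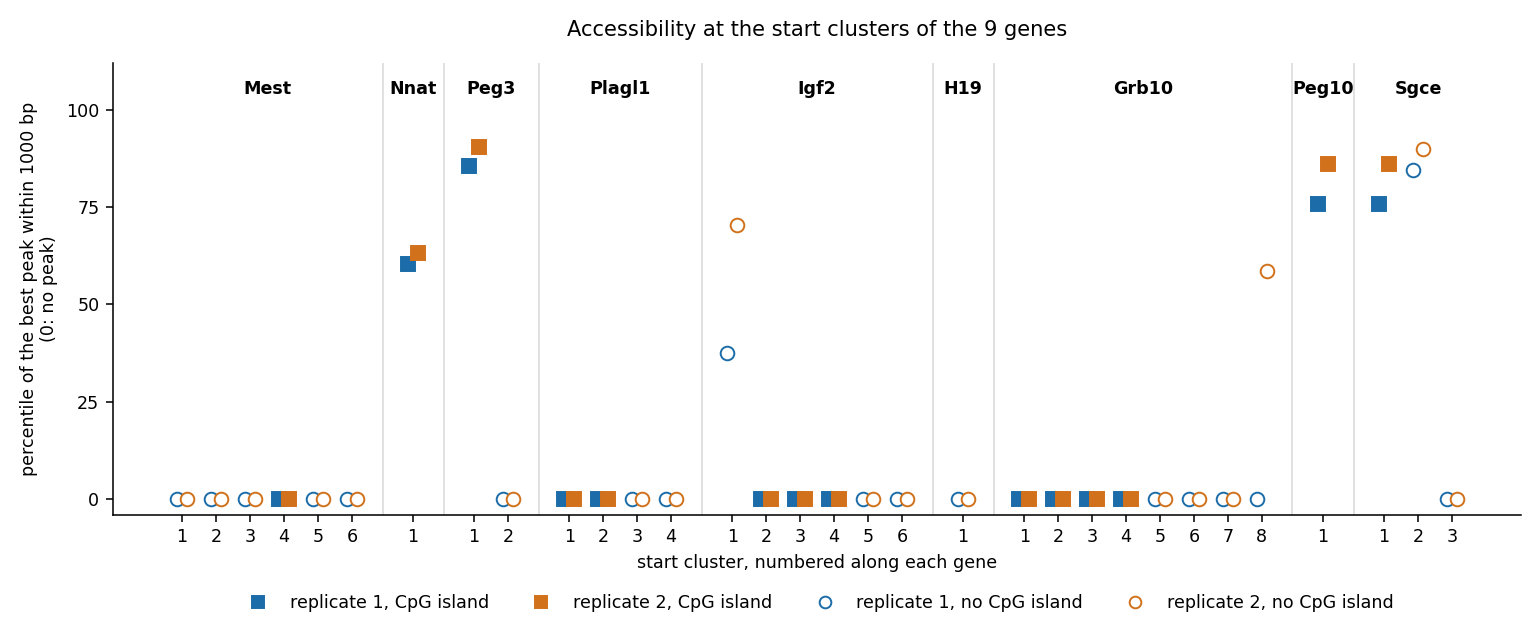
Highest percentile of a peak within 1000 bp of each of the 32 start clusters of the 9 genes, on the y axis, by gene and cluster number on the x axis. Blue marks are replicate 1 and orange marks replicate 2, filled squares stand for clusters at a CpG island of the stricter kind, and a mark at 0 means no peak. Only 6 clusters had a peak of both libraries, and the island clusters of Mest, Plagl1, Igf2 and Grb10 all lay at 0.

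Peg3, which encodes a zinc-finger protein, was accessible at its start and along its first intron. Its 5′ start (chr7:6730419-6730431, minus strand) lay in a CpG island of 1314 bp. The site over the start itself, chr7:6730416-6730585, which covers the first exons of both Peg3 and its divergent neighbour Usp29, had a peak value of 46 in replicate 1 (percentile 51.4) and 86 in replicate 2 (percentile 66.5). The 4 intronic sites printed above ranked higher. From site 1 to site 4, values were 84, 101, 95 and 90 in replicate 1 and 124, 141, 140 and 138 in replicate 2, which put each at percentile 85.6 or above in both lists. All 4 lay inside 1 hotspot, 2676 bp long in replicate 1 and 2874 bp in replicate 2, whose −log10 q stood at the ceiling of 100 in both.

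YY1 is a zinc-finger factor that can act as activator or repressor. In the first 4000 bp of Peg3 its motif AANATGGC, searched on both strands, occurred 12 times, all on the plus strand and 11 of them with the same 8 letters, at a median spacing of 139 bp. This stretch and motif were chosen after the peaks there had been seen. The corresponding stretch held a median of 1 match over 21938 protein-coding genes, and 13 genes (0.0593%), Peg3 included, held 12 or more. All 12 matches lay within the hotspot of each library. Peaks covered 7 of them in replicate 1 and 6 in replicate 2, with 5 covered in both. The 2 matches farthest into the gene, 3004 and 3126 bp from the start, had no peak in either library. Nor did the matches at 1547 and 2164 bp, between covered ones. Across all 117590 sites found in both libraries, 3.13% held the motif in the central 150 bp.

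The remaining Peg3 window was sparse. Outside the start and first intron it held 3 sites found in both libraries, with values of 24 to 31 in replicate 1 and 54 to 61 in replicate 2. It was also the window in which replicate 2, despite its longer list, had fewer peaks than replicate 1 (8 against 12). Merged into sites, these gave 8 found in both libraries, 1 of replicate 1 alone and 0 of replicate 2 alone. In the first intron of Peg3 replicate 1 had 5 peaks where replicate 2 had 4, with overlapping replicate 1 peaks in site 3. Usp29 shares the Peg3 start site, and Zim1, a neighbouring imprinted zinc-finger gene, had no promoter peak in either library.

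At the Igf2 and H19 domain, H19, a long noncoding RNA, had no peak within 1000 bp of the start of any of its 7 annotated transcripts. The nearest peak lay 2533 bp away in replicate 1 and 2193 bp away in replicate 2. Among lincRNA genes, 1202 of 5854 had a promoter peak of both libraries. The H19 upstream site 1 had a value of 32 in replicate 1 (percentile 28.5) and 66 in replicate 2 (percentile 46.5), and site 2 had 24 (percentile 13.3) and 69 (percentile 50.1). Both sites were thus of low to middling rank, yet present in both libraries. Their hotspots reached a −log10 q of 100 in both libraries at site 1, and of 5.52 in replicate 1 and 100 in replicate 2 at site 2.

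The CTCF core GGNGGCAG occurred 6 times in the 5000 bp upstream of the first H19 start, 5 times on the minus strand, which is the strand of the gene. This stretch, too, was chosen after the peaks had been seen. The same length upstream held a median of 2 matches over protein-coding genes, and 3.89% of them held 6 or more. Peaks covered 3 matches in replicate 1 and 2 in replicate 2, and hotspots covered 4 and 5. The match 2170 bp upstream, the first of the pair printed separately, had no peak, but a replicate 2 peak of value 46 began 20 bp from it. The match 3895 bp upstream lay 109 bp from the nearest site found in both libraries and inside the hotspot of each library. The plus-strand match, 1302 bp upstream and not printed, lay in no peak or hotspot of either library. Of all sites found in both libraries, 7.18% held this core in their central 150 bp. The ZFP57 motif TGCCGC, bound when methylated by a zinc-finger protein that maintains imprints, matched 2 times in H19 site 2, and 1 of those matches overlapped a CTCF core on the other strand.

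**Figure D2:**
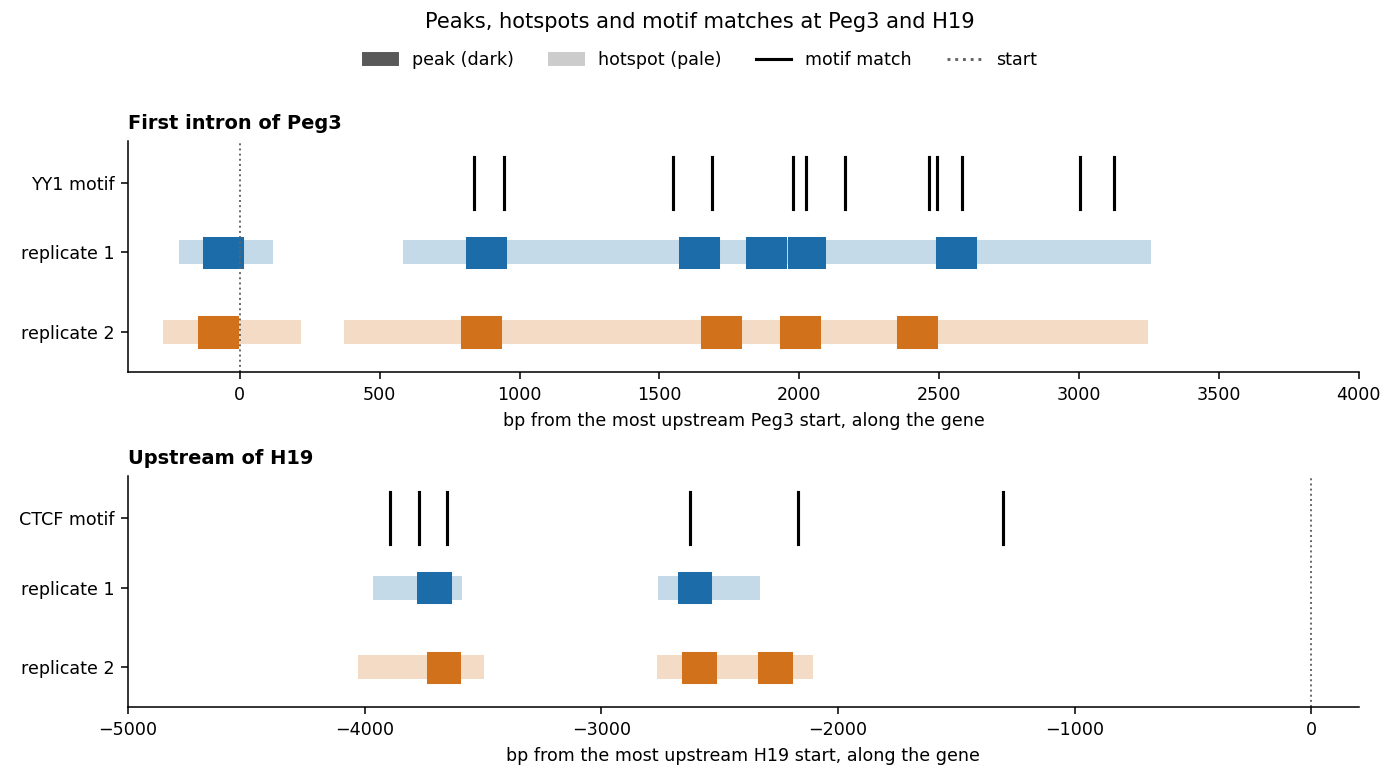
Peaks (dark bars) and hotspots (pale bars) of replicate 1 (blue) and replicate 2 (orange) in the first intron of Peg3 and upstream of H19, with the matches to the YY1 and CTCF motifs as black lines. The x axis is the distance in bp from the most upstream start along the gene, marked by a dotted line. All 12 YY1 matches fall within the hotspot of each library, and 4 and 5 of the 6 CTCF matches within those upstream of H19.

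Igf2, the growth factor, was accessible at only 1 of its 6 start clusters, that of transcript Igf2-203 at chr7:142666816. The site at the upstream start printed above had a value of 37 in replicate 1 (percentile 37.5) and 91 in replicate 2 (percentile 70.5). A second site there, chr7:142667136-142667385, had 27 and 52. The 5 other clusters, of which 3 lie at CpG islands of the stricter kind, had no peak within 1000 bp in either library. Their nearest peaks lay 5046 to 9420 bp away in replicate 1 and 2726 to 8578 bp in replicate 2. The site counts of the window came mainly from elsewhere: 10 of the 17 sites found in both libraries were intergenic, outside protein-coding genes. The highest ranked of these were chr7:142675776-142675925, 9.04 kb upstream of Igf2 (60 and 95), chr7:142629596-142629765, in the interval between Igf2 and H19 (50 and 103), and chr7:142646816-142646965 in the same interval (56 and 93). None of the 17 sites had a mean percentile above 90. Ins2, the neighbouring insulin gene, had a promoter peak of both libraries at 1 of its annotated starts, chr7:142699496-142699665, with values of 23 and 53. Near another of its starts, at chr7:142678776-142678925, replicate 2 alone had a peak, with a value of 42 (percentile 12.8).

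Peg10, a gene derived from a retrotransposon, and Sgce, which encodes epsilon-sarcoglycan, start back to back on opposite strands of chromosome 6. Their shared start was broadly open. The site printed above had a value of 69 in replicate 1 (percentile 75.7) and 115 in replicate 2 (percentile 86). Within 1000 bp of this shared start, further sites had 35 to 63 in replicate 1 and 77 to 107 in replicate 2, among them chr6:4747776-4747985, which held the ZFP57 motif TGCCGC. The strongest site lay in the first part of Peg10, at chr6:4749136-4749325, 1825 bp from its start, with 99 (percentile 92.3) and 138 (percentile 96.3). Hotspots at the shared start had a −log10 q of 100 in both libraries.

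Sgce had its highest-ranked promoter call away from this start. The peak with values of 82 and 123 at chr6:4740636-4740785 counts through Sgce-213, a transcript without a coding annotation. Within the gene, the highest-ranked site outside the start windows was chr6:4680676-4680865, in an intron, with 89 in replicate 1 and 118 in replicate 2. Over its whole length it held the AP-1 motif TGANTCA and, outside the central 150 bp, a CTCF core. Downstream of the gene, chr6:4663616-4663805 had 79 and 113. The window of Sgce held 18 sites found in both libraries and that of Peg10 12, all of which lie in the Sgce window too.

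Nnat encodes neuronatin, a small membrane proteolipid of the endoplasmic reticulum, and lies in an intron of Blcap. Its single start cluster had a peak of both libraries, the Nnat site printed above, with 53 in replicate 1 (percentile 60.4) and 82 in replicate 2 (percentile 63.1). That site counts only through the start of Nnat-203, an annotated transcript that retains an intron. The CpG island of the gene, chr2:157559697-157560747, which covers its coding starts, held no peak in either library. Blcap, whose own island held 2 sites, had 89 and 134 at chr2:157566416-157566625, percentiles 88 and 94.7. Of the remaining high sites of the window, chr2:157513756-157513925 was intergenic and had 84 and 129. The other, chr2:157571616-157571765, lay 417 bp from another Blcap start and had 82 and 116.

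Mest had no peak within 1000 bp of any of its 6 start clusters. Its CpG island start (chr6:30738050-30738055), in an island of 1011 bp, lay 7261 bp from the nearest peak of replicate 1 and 1441 bp from that of replicate 2, and no hotspot of either library lay within 1000 bp of it. The gene body held 1 site found in both libraries, chr6:30745256-30745465, an intronic site of low rank with 30 in replicate 1 and 56 in replicate 2. Over its whole length it carried the C/EBP motif TTGCNNAA, outside the central 150 bp, and the AP-1 motif. C/EBP factors are regulators of fat cell differentiation, and AP-1 is a family of stimulus-responsive factors. The strongest site of the window belonged to a neighbour: the promoter of Cep41 (chr6:30693736-30693885) had 116 and 147, percentiles 97.5 and 99.4. Copg2, an imprinted neighbour whose body overlaps the end of Mest, had promoter values of 111 and 140.

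Plagl1, a zinc-finger transcription factor, likewise had no promoter peak. Its main cluster, with 22 of the 25 annotated transcripts (chr10:13090691-13091013), lay at a CpG island of 1110 bp, and the nearest peak was 3186 bp away in replicate 1 and 3206 bp in replicate 2. That peak formed the highest-ranked site of the window, chr10:13087336-13087505, in an intron, with 69 (percentile 75.7) and 105 (percentile 80.2). The upstream start at a second CpG island was 26852 bp from a peak of replicate 1. Of the 7 sites found in both libraries, none had a mean percentile above 90. The promoter of the neighbour Ltv1 had 107 in replicate 1 and 132 in replicate 2.

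Grb10 had the longest gene body, 108176 bp, and 8 start clusters. The 4 upstream clusters, all at CpG islands of the stricter kind, had no peak nearer than 9953 bp in either library. One of these islands, chr11:12025327-12026992, is the known imprinting control region. Accessibility lay inside the gene instead, in 10 intronic sites. The Grb10 intron site printed above had 111 in replicate 1 (percentile 96.2) and 144 in replicate 2 (percentile 98.5), and chr11:11965756-11965945 had 102 and 136. An intergenic site at chr11:11908196-11908345, between Grb10 and Ddc, had 100 and 130 and held the C/EBP motif. In replicate 2 alone, a peak with a value of 77 lay within 1000 bp of the minor start of Grb10-204. Ddc, an imprinted neighbour that makes dopamine and serotonin, had no promoter peak.

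Read by domain, the known control regions fell into 2 kinds. Sites found in both libraries lay in the Peg3 intron, upstream of H19 and at the start shared by Peg10 and Sgce. No peak of either library lay in the CpG island at the Mest, Nnat and main Plagl1 starts, nor in the Grb10 control island. This grouping was made after the values were seen, and which parental chromosome was cut was not tested.

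**Figure D3:**
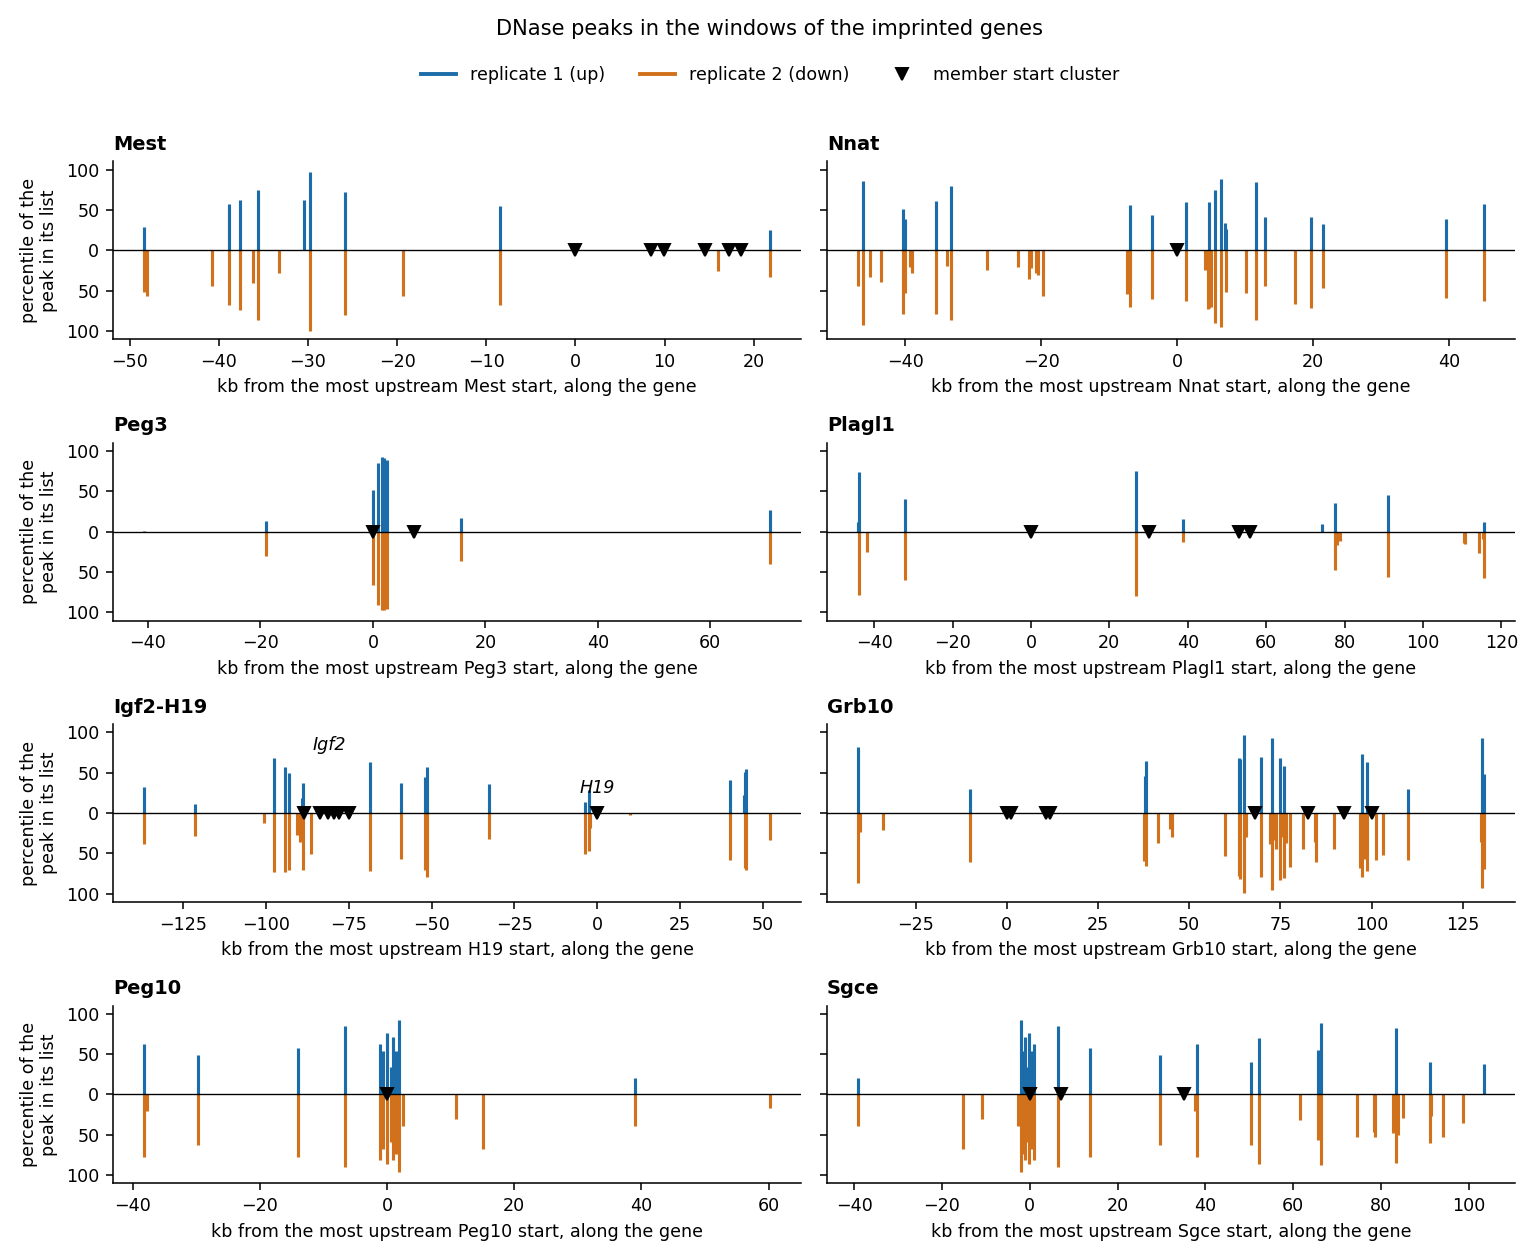
Peaks in the 8 windows, by distance in kb from the most upstream start along the gene (for the joint domain, from H19) on the x axis. The y axis is the percentile of the highest peak of each site in its own list, upward for replicate 1 (blue) and downward for replicate 2 (orange), and black triangles are start clusters. Peaks gather at the Peg3 start and at the start of Peg10 and Sgce, and the upstream starts of Grb10 stand apart from its intronic peaks.

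Counted over the windows, 91 sites held a peak of both libraries, 79 held one of replicate 2 alone and 8 one of replicate 1 alone. Replicate 1 had 9.18 and replicate 2 15.3 peaks per 100 kb, a mean of 12.2 ± 4.33 (SD, n = 2). Sites found in both libraries stood at 8.19 per 100 kb, close to the median of 7.85 over the windows of protein-coding genes, whose quartiles were 3.53 and 12.2. The windows ran from 4.09 per 100 kb at Plagl1 to 17.6 at Nnat, percentiles 28.1 and 91.8 among protein-coding genes. Between them stood Peg3 (6.32), Mest (6.4), Grb10 (7.21), Igf2-H19 (8.89), Sgce (10.4) and Peg10 (10.6). Neighbours in this order did not hold their order in each library: Peg3 ranked at percentile 53.2 in replicate 1 and 24.7 in replicate 2, and Grb10 at 43.1 and 66.6. Nnat was the highest of the 8 in both libraries (percentiles 89.3 and 95.3).

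**Figure D4:**
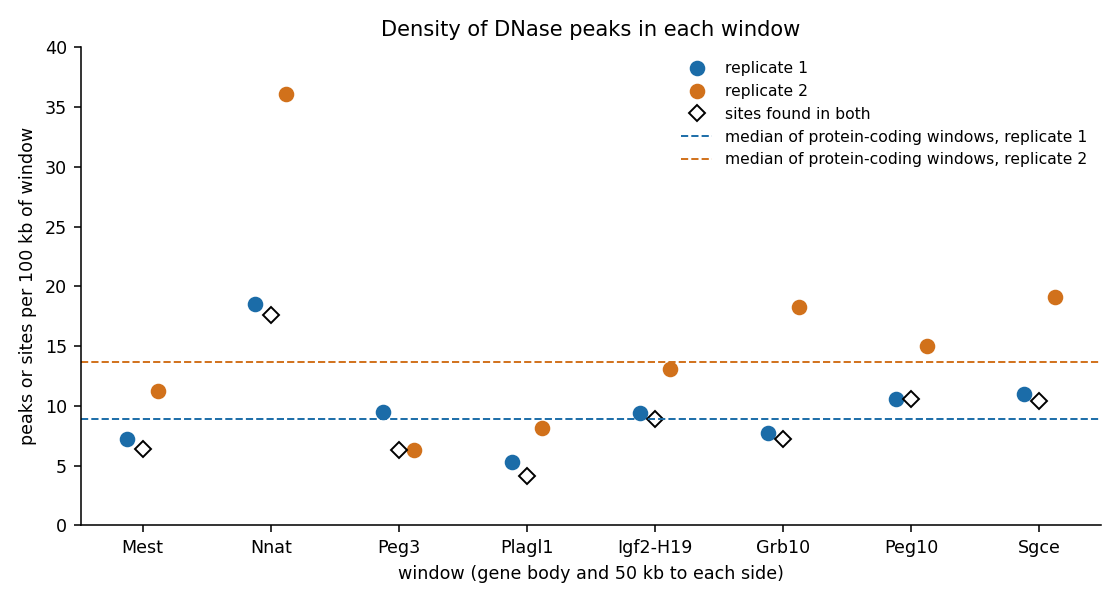
Peaks of replicate 1 (blue) and replicate 2 (orange) and sites found in both (diamonds) per 100 kb of each window, on the y axis, for the 8 windows on the x axis. Dashed lines are the medians over the windows of protein-coding genes, 8.89 for replicate 1 and 13.7 for replicate 2, and Nnat, Peg10 and Sgce lie above the line of each library.

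The libraries overlapped in these windows about as often as elsewhere. Of the replicate 1 peaks, 93 of 102 (91.2%) overlapped a replicate 2 peak, against 90.3% over the genome. Of the replicate 2 peaks, 91 of 170 (53.5%, exact binomial 95% interval 45.7 to 61.2, which covers counting error only) overlapped a replicate 1 peak, against 55.5%. By window the latter share ran from 39.5% at Grb10, where 23 sites were of replicate 2 alone, to 100% at Peg3, where there were 0.

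In position and sequence the 91 sites differed little from all 117590. Promoter sites made up 20.9% of them (all sites 21.7%), intronic sites 37.4% (35.1%) and intergenic sites 38.5% (39.3%), and 35 of the 91 lay in the body of a member. CpG islands of the looser kind overlapped 18 of the 91 (19.8%), against 18.8% of all sites, and the stricter kind 9 (9.89%), against 14.5%. The median GC content of the central 150 bp was 49.3% in both. A mean percentile above 90 was reached by 9 of the 91 (9.89%), against 13.3% of all sites, and these lay in the Mest, Nnat, Peg3, Grb10 and shared Peg10 and Sgce windows.

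Motif shares were also near those of all sites, and YY1 stood furthest, in percentage points, from its overall share. It was present in 6 of the 91 (6.59%) against 3.13%, and 5 of these 6 lay in the Peg3 window and 1 in that of Grb10. The CTCF core stood in 6.59% (7.18%), C/EBP in 12.1% (11.9%), AP-1 in 8.79% (8.94%), ZFP57 in 3.3% (3.1%) and the EBF motif CCCNNGGGA in 5.49% (3.83%). The PPAR-RXR motif CAAAGGTCA, bound by the master regulator of fat cell differentiation with its partner, was in 0 of the 91 and in 0.641% of all sites. At that share fewer than 1 of 91 would carry it.

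Neighbours and related genes were read by the same promoter rule. Of the 12 protein-coding genes whose bodies overlap the windows, 8 had a peak of both libraries: Cep41, Copg2, Blcap, Usp29, Ltv1, Mrpl23, Ins2 and Casd1. Among 57 other annotated imprinted genes, 31 did (54.4%), a share near the 57.2% of all protein-coding genes. The 57 include noncoding genes, which that background leaves out, and some of the neighbours just counted. The noncoding RNAs Airn (85 and 134) and Kcnq1ot1 (93 and 129), which start in imprinting control regions, were among the 31, as were Gnas (106 and 132) and Snrpn (43 and 105). Dlk1, a preadipocyte growth inhibitor, Meg3, Cdkn1c, a cell cycle inhibitor, and Rasgrf1 had none in either library.

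Of 19 genes of IGF signalling, 13 had a promoter peak of both libraries (68.4%), against 57.2% of all protein-coding genes. The receptors Igf1r (82 in replicate 1 and 123 in replicate 2), Insr (120 and 143) and Igf2r (76 and 123), the last of which clears IGF2 and is itself imprinted, all had one. The substrates Irs1 (96 and 138) and Irs2 (130 and 147), which carry the receptor signal inward, had high ranks. Of the binding proteins, Igfbp4, Igfbp6 and Igfbp7 had a peak of both libraries, Igfbp3 and Igfbp5 of replicate 2 alone, and Igfbp1 and Igfbp2 of neither.

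The protein-coding gene outside the windows most like each member was found by Euclidean distance over 4 percentiles, the window density and the best promoter value in each of the 2 libraries. It was Scrt1 for Nnat (distance 6.69 percentile points), Fzd8 for Peg3 (6.5), Cda for Igf2 (7.28), Dusp26 for Grb10 (2.58), Aspg for Peg10 (2.54) and Lats2 for Sgce (2.28). For Mest, Plagl1 and H19, which had no promoter peak, the likeness rests on window density alone, and the nearest genes were Fam124a, Slc39a12 and Cdk5r2, all at distances of 0.306 or less. Many other genes lay nearly as close to each of them, so the named genes are not singled out. Igf2 and H19 were each scored here on the window of their own gene body.

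These lists hold called regions and no read counts, so depth is unknown and an absent peak is an absence of a call. The libraries form 1 group, so no change with differentiation could be measured.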

How the data were processed

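Peak and hotspot lists were used for each of the 2 libraries. Per the deposited file lists, the authors called peaks and hotspots on 1 alignment per library, without pooling, on assembly mm10. No label or header used here names the aligner, the caller or the depth. The deposited peak signal has no stated scale, and values run from 1 to 150 on peaks of 150 bp. Per the file layout, the deposited hotspots carry a −log10 q, with a ceiling of 100 that 46.7% and 48.5% of them reach.

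Repeated lines (20 and 33) and peaks off the assembled chromosomes (337 and 603) were left out. Overlapping peaks (at least 1 bp) were merged into sites. Starts and gene bodies came from GENCODE M21, sequences from the RefSeq GRCm38.p6 genome, whose chromosomes all contained the deposited regions. Peaks are near a start when within 1000 bp of that of any annotated transcript. The classing of sites as promoter, intronic or intergenic used protein-coding genes alone, so an intergenic site can lie in a noncoding gene. CpG islands were unions of sequence windows of at least 200 bp, 50% GC and an observed to expected ratio of 0.6, or of the stricter criteria. Motifs were searched on both strands in the central 150 bp of a site for shares, and over the whole site where a single site is described; TTGCNNAA for C/EBP replaced a consensus that had been misspelled in the plan. The AP-1 motif is its own reverse complement and was counted once.

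Named were all 9 genes with every start cluster, the promoter sites, the 3 highest-ranked other sites per window, neighbours, 1 most-like gene per member and listed genes. The members and lists were chosen with earlier results of these data known. No test was made, since there was 1 group; shares are set beside those of all genes or sites. Scripts (Python 3.11.15, numpy 2.4.6, pandas 2.3.3, pysam 0.24.0, matplotlib 3.10.9) were tested on simulated data and recovered 15 of 15 known answers. Flank, promoter window, overlap rule, peak strength, hotspots, island criteria, start set and each library alone were tried as alternatives.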

Additional observations from a re-analysis of the deposited data

How the results depend on the processing

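The 91 sites found in both libraries became 142 with a flank of 100 kb and 55 with the stronger 50% of the peaks of each list; with 1 library alone the windows held 102 to 170 peaks. The density of 8.19 per 100 kb became 9.18 to 15.3 peaks with 1 library alone and 4.95 with the stronger 50% of the peaks; under the other alternatives it ran from 6.66 to 9.41. The share of sites in a CpG island, 19.8%, became 9.89% with the stricter island criteria 11.8 to 17.6% with 1 library alone and 27.3% with the stronger 50% of the peaks; under the other alternatives it ran from 17.6 to 21.5%. The share of replicate 2 peaks that overlap a replicate 1 peak ran from 50.6 to 56% over its alternatives. Members with a promoter peak in both libraries numbered 4 to 6: Igf2 was lost with the stronger peaks, Grb10 was gained with a promoter window of 2500 bp or with replicate 2 alone, and Nnat was lost when protein-coding transcripts alone supplied the starts, an alternative chosen after seeing the data. Of 32 counts per window under 4 alternatives, 22 stayed within 1.5 times the reported count and 10 moved; those at Plagl1 ran from 2 to 17 and those at Mest from 2 to 22. No paired analysis was possible because there was only 1 group. Depth is unknown, so what it limits was not tested.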

Other observations

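Some peaks beyond the described comparisons are given as values. A peak of replicate 2 alone lay at chr7:142568116-142568265, downstream of H19, with a value of 29 (percentile 2.81). Another lay in the Igf2 CpG island at chr7:142663654-142664690, with a value of 69. One more, at chr6:30739496-30739645 in Mest, had a value of 51. Replicate 1 alone held a peak of value 55 at chr6:30693056-30693205, beside the Cep41 promoter.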
